A study of Mus musculus with 9 samples.

Results

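The genes described here are 10 regulators of actin turnover in dendritic spines: the LIM kinases Limk1 and Limk2, the cofilin family members Cfl1, Cfl2 and Dstn, the slingshot phosphatases Ssh1, Ssh2 and Ssh3, and the upstream kinases Pak1 and Rock2. They were taken by gene symbol from the deposited count table. All 10 were found among its 54532 genes, and all 10 passed the filter on low counts that left 19782 genes for testing. Their RNA was measured in the ipsilateral hippocampus of 9 N4 Ube3am-/p+ mice, 1 hippocampus per mouse. These mice carry a mutated maternal copy of Ube3a, a model of Angelman syndrome, and were backcrossed to 129Sv/Ev for 4 generations to make them prone to seizures evoked by sound. At P21 each mouse was injected into the cerebral ventricle with 0.5 nmol of Ant-134, a locked nucleic acid antisense oligonucleotide against miR-134 (n = 5), or with 0.5 nmol of Scr, a scrambled oligonucleotide (n = 4). The audiogenic stimulus was given to both groups at P22, P24 and P26, and the hippocampus was collected at P27. No wild-type or uninjected mice and none without the stimulus were analysed here, so every value below describes mutant mice given the audiogenic stimulus, and the sexes of single mice and their seizure scores were not given in the sources used here.

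Cofilin severs and depolymerises actin filaments. LIM kinases phosphorylate cofilin and thereby switch it off, and slingshot phosphatases remove that phosphate and switch it on again. PAK1, downstream of Rac and Cdc42, and ROCK2, activated by the product of Rhoa, phosphorylate and activate the LIM kinases, so that signals reaching the spine set the balance between actin assembly and disassembly. Limk1 is the best known target of miR-134, a brain-enriched microRNA that represses its translation in dendrites of hippocampal neurons. RNA sequencing measures the transcripts only, and neither the proteins nor the phosphorylation of cofilin were measured in these files.

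The sequences that link miR-134 to these genes are shown first, because they say which members could pair with the microRNA that Ant-134 was designed to block. Mature mouse miR-134 (RefSeq, GRCm38.p6, chr12:109734145-109734166, plus strand) is given with its seed, bases 2 to 8, in capitals.
miR-134: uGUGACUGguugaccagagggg

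A 7-base site was counted as CAGTCAC, which pairs with the whole seed, or AGTCACA, which pairs with seed bases 2 to 7 and has an A opposite base 1. The sites were searched on the transcript strand of the longest 3′ UTR of each gene among its transcripts annotated as protein-coding. Of the 10 members, 3 held at least 1 such site, Limk2 with 1, Ssh1 with 4 and Rock2 with 1. The share over all 15278 tested genes with such a 3′ UTR was 19.5% (2973 genes). Transcripts of other types, such as those annotated for nonsense-mediated decay, can carry a longer 3′ UTR (2115 bases for Limk1 and 1811 for Ssh3). Counting any annotated 3′ UTR added Ssh3, which made 4 of 10 members against 23.2% of all genes. The median 3′ UTR was 1596 bases among the members and 1164 bases among all those genes, and the shares were not adjusted for length. The sites of Limk2, Ssh1 and Rock2 are given with their flanks, the site in capitals and U written as T (GRCm38; Limk2 and Ssh1 on the minus strand, Rock2 on the plus strand).
Limk2, base 648 of a 3′ UTR of 1484 bases, chr11:3345075-3345103: gtctcaacaagCAGTCACtcacaaaaaca
Ssh1, base 159 of 5145, chr5:113942063-113942091: tgtcagccaagAGTCACAttcagatatgt
Ssh1, base 842 of 5145, chr5:113941380-113941408: cttatgtcaccCAGTCACtgagaaggcac
Ssh1, base 2395 of 5145, chr5:113939827-113939855: actgtcaatacCAGTCACcttaaaaagcg
Ssh1, base 4930 of 5145, chr5:113937292-113937320: ttccctcgttgAGTCACAactttgatttt
Rock2, base 261 of 3182, chr12:16984891-16984919: ctgcgtcataaAGTCACActacattgcac

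The 3′ UTR of Limk1 held no 7-base site. It held a 6-base match, AGTCAC, which pairs with seed bases 2 to 7. A 7-base site lay in the coding sequence of Limk1. Both are shown because Limk1 is the member for which regulation by miR-134 is best known (GRCm38, minus strand, match in capitals).
Limk1, base 196 of a 3′ UTR of 1184 bases, chr5:134657011-134657038: tctggcccccaAGTCACcaggctgcaca
Limk1, base 485 of a coding sequence of 1944 bases, chr5:134670424-134670452: cctgccccacaCAGTCACcctcgtgtcta
The 6-base match was looked for after the 7-base result was known. With it, 5 of the 10 members held a match (Limk1 and Ssh2 were added) against 30.4% of all genes, and 2 members, Limk1 and Ssh3, held a 7-base site in the coding sequence against 18.4% of all genes. The 8-base site CAGTCACA, which joins both 7-base sites, was in the 3′ UTR of 0 members against 4.44% of all genes. Cfl1, Cfl2, Dstn, Ssh3 and Pak1 held none of these matches in the 3′ UTR searched first. A match describes the letters only and does not show that the microRNA binds there.

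**Figure D1:**
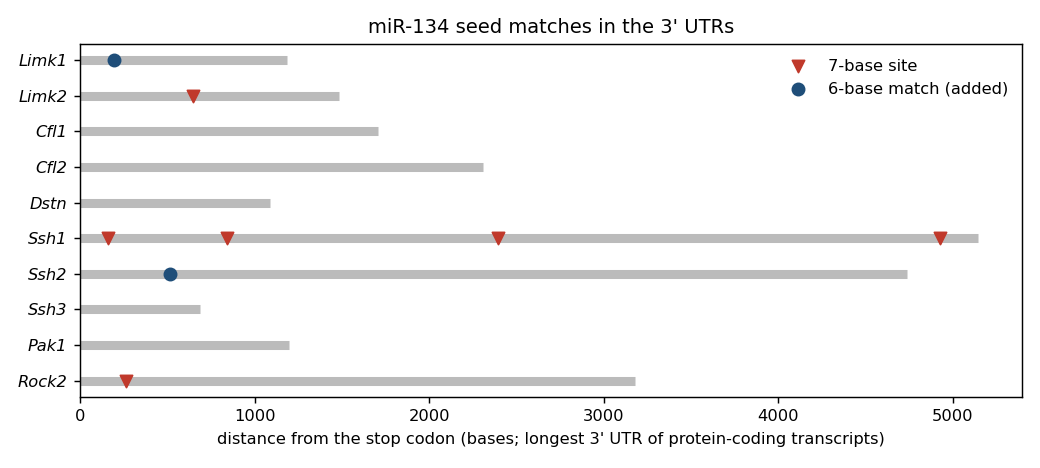
Longest 3′ UTR of each gene among protein-coding transcripts (grey bars, in bases from the stop codon) with 7-base miR-134 sites (triangles) and 6-base matches outside them (circles). Ssh1 holds 4 of the 6 triangles and has the longest bar (5145 bases), whereas Limk1 has only a circle, at base 196.

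Levels are given as FPKM, fragments scaled to exon length and library size, where genes are compared with each other, and as CPM, counts scaled to library size with TMM factors, where mice are compared for 1 gene. Each library held between 28583298 and 41978113 counts assigned to genes. The shallowest member, Ssh1, had 898 to 1307 counts per mouse and Cfl1 had 26641 to 39418, so the counting error of a single value was at most 3.34%. For Ssh1 that error was above the coefficient of variation over the 9 mice (2.60%), and for the other 9 members it was below. Hippocampal and neuronal markers were present in every library (summed FPKM of 309 to 384 for 6 hippocampal genes and of 876 to 1069 for 6 neuronal genes).

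In these hippocampi Cfl1 was by far the most abundant of the 10 transcripts and the slingshots Ssh1 and Ssh2 were the scarcest. The mean over the 9 mice was 393 FPKM for Cfl1, 78.2 for Dstn, 72.4 for Pak1, 25.6 for Ssh3, 23.0 for Cfl2, 21.3 for Limk2, 13.7 for Rock2, 8.18 for Limk1, 3.53 for Ssh1 and 3.20 for Ssh2. Cfl1 stood 5.04-fold above Dstn, Pak1 2.84-fold above Ssh3, Limk2 1.56-fold above Rock2, Rock2 1.68-fold above Limk1 and Limk1 2.32-fold above Ssh1. Each of these 5 steps held in 9 of 9 mice with no overlap of the ranges. The other neighbours in the order overlapped. Dstn was above Pak1, Ssh3 above Cfl2 and Ssh1 above Ssh2 in 8 of 9 mice each, and Cfl2 was above Limk2 in 7 of 9. The deposited lengths cover all annotated exons, from 1911 bases for Dstn to 18519 bases for Ssh2, so that exons not used in hippocampus lower the FPKM of a gene.

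**Figure D2:**
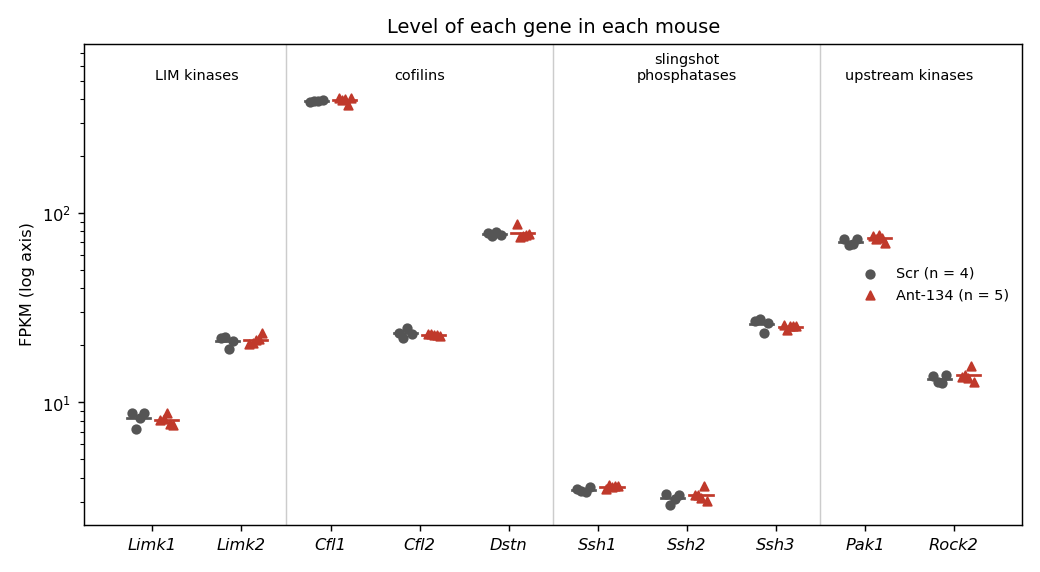
FPKM (log axis) of each gene in each Scr mouse (grey circles, n = 4) and Ant-134 mouse (red triangles, n = 5), with the group mean as a line. Cfl1 (mean 393 FPKM) lies far above Ssh1 and Ssh2 (3.53 and 3.20 FPKM), and the groups overlap for every gene.

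Ant-134 against Scr was the comparison of the study, and for this pathway it asks whether the transcripts differed in mice that had received the miR-134 inhibitor. The paper reports milder audiogenic seizures in N4 mice given Ant-134 than in those given Scr. The oligonucleotide and the seizure history therefore cannot be told apart here. None of the 10 genes passed the test. At an unadjusted p below 0.05 edgeR's quasi-likelihood test called 0 of 10 members higher and 0 of 10 lower, beside 1.49% of all tested genes higher and 2.69% lower (827 genes, 4.18%, in either direction). After Benjamini-Hochberg adjustment it called 0 of 10 members, each with an adjusted p = 0.998, and 0 of 19782 genes. DESeq2's Wald test called 0 of 10 members at an unadjusted p below 0.05 (2.74% of all genes, 1.08% higher and 1.66% lower) and 0 of 10 after adjustment (0.0427% of all genes). The 2 groups overlapped for all 10 members, as for all but 1.54% of tested genes (0.647% higher in Ant-134 and 0.895% lower). An exact two-sided permutation test of the mean CPM over every split of the 9 mice into 5 and 4, whose smallest possible p is 0.00794, gave 0 of 10 members an unadjusted p below 0.05, beside 4.67% of all tested genes (2.03% higher and 2.64% lower). The median log2 fold change of the members was 0.018, beside 0.0026 over all tested genes, with 7 members above 0 and 3 below, and 51.2% of all tested genes above 0. In such whole-tissue RNA, fewer cells of a type and less RNA per cell cannot be told apart. The count of members called was 0 in each of 8 other fits that left out no mouse, and 1 (Ssh3) in a fit without the mouse Scr 3. In 1 of those 8 fits, with the replicate number as a block, Ant-134 5 has no partner and adds nothing to the group difference.

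Of the LIM kinases, Limk1 (chr5:134656039-134688598, minus strand) is the brain-enriched form that acts in spines, and Limk2 (chr11:3344256-3409189, minus strand) is its broadly expressed relative. Limk1 was at 58.6, 59.2, 63.5, 55.5 and 55.0 CPM in Ant-134 mice 1 to 5 and at 63.6, 52.9, 59.9 and 64.0 CPM in Scr mice 1 to 4. All 5 Ant-134 values lay between the lowest Scr mouse, Scr 2, and the highest, Scr 4. The mean was 58.3 ± 3.40 CPM (SD, n = 5) in Ant-134 and 60.1 ± 5.14 (n = 4) in Scr, a log2 fold change of -0.04 (SE 0.061, edgeR p = 0.506, exact permutation p = 0.571). The 95% interval ran from -0.17 to 0.089, that is a change of -11.3% to 6.39%, so that an effect of Ant-134 on Limk1 RNA within those limits was not detectable here. Limk2, which holds the 7-base site shown above, was at 125, 126.1, 132, 133 and 143 CPM in Ant-134 and at 135, 137, 118 and 131 CPM in Scr. Its highest value was in Ant-134 5 and its lowest in Scr 3. The means were 132 ± 7.11 CPM (SD, n = 5) and 130 ± 8.43 (n = 4), with a log2 fold change of 0.018 (SE 0.053, interval -0.095 to 0.13, edgeR p = 0.743, exact permutation p = 0.770). It turned to -0.025 without Scr 3 and to -0.013 without Ant-134 5.

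Cfl1 (chr19:5490455-5495201, plus strand) encodes the non-muscle cofilin, Cfl2 (chr12:54858809-54862877, minus strand) the cofilin best known from muscle, and Dstn (chr2:143915320-143943324, plus strand) destrin, also called actin depolymerising factor. Cfl1 was at 964, 939.8, 948, 889.8 and 957 CPM in Ant-134 and at 918, 932, 927 and 937 CPM in Scr. Ant-134 4 was the lowest of all 9 mice, and the other 4 Ant-134 mice were the highest. The means were 939.9 ± 29.5 CPM (SD, n = 5) and 929 ± 8.31 (n = 4), the log2 fold change was 0.017 (SE 0.038, interval -0.064 to 0.099), and p was 0.655 by edgeR and 0.516 by the exact permutation test. Without Ant-134 4 the exact permutation test gave p = 0.0286 for Cfl1 and edgeR p = 0.322 at a log2 fold change of 0.035. The log2 fold change was 0.0078 without Ant-134 1, 0.0084 without Scr 1 and 0.011 without Ant-134 5, and the exact permutation p of Cfl1 was 0.464 to 0.800 in the other left-out fits.

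Cfl2 was at 76.0, 75.8, 75.3, 74.7 and 73.9 CPM in Ant-134 and at 76.6, 72.2, 81.7 and 75.6 CPM in Scr. The Ant-134 mice lay close together (75.1 ± 0.862 CPM, SD, n = 5), inside the wider range of the Scr mice (76.5 ± 3.92, n = 4). Its log2 fold change was -0.026 (SE 0.042, interval -0.12 to 0.064, edgeR p = 0.541, exact permutation p = 0.540) and became 0.0066 without Scr 3. Dstn was at 168.8, 144, 147, 148 and 149.6 CPM in Ant-134 and at 150.4, 147, 154 and 148.9 CPM in Scr. Ant-134 1 stood above all others, and the other 4 Ant-134 mice lay below the Scr mean. The means were 152 ± 9.81 CPM (SD, n = 5) and 150.04 ± 2.66 (n = 4), and the log2 fold change of 0.015 (SE 0.048, interval -0.088 to 0.12, edgeR p = 0.765, exact permutation p = 0.960) became -0.027 without Ant-134 1. That mouse also had the highest summed level of 6 choroid plexus markers (1996 FPKM, against 40.4 to 1586 in the other 8 mice), whose part in the Dstn value was not tested. Exons of Cfl1 share 468 bases with Snx32 and exons of Cfl2 share 81 bases with 1700081N11Rik, both on the opposite strand, and the strand setting of the counting was not given in the sources used here, so reads from the shared bases cannot be told apart.

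The slingshot phosphatases activate cofilin by removing the phosphate that LIM kinases add. Ssh1 (chr5:113937094-113993894, minus strand), the member with 4 miR-134 sites, was at 31.3, 32.7, 32.0, 32.6 and 32.2 CPM in Ant-134 and at 31.2, 30.9, 30.3 and 32.2 CPM in Scr. All 5 Ant-134 mice lay above the Scr mean, but the highest Scr mouse, Scr 4, lay above 3 of them. The means were 32.2 ± 0.575 CPM (SD, n = 5) and 31.2 ± 0.804 (n = 4), a change of 3.19% (interval -3.89% to 10.8%) or a log2 fold change of 0.045 (SE 0.048). Its p was 0.360 by edgeR and 0.0714 by the exact permutation test, the smallest permutation p of the 10 members (adjusted p = 0.998 over all tested genes). With single mice left out, the exact permutation p of Ssh1 ran from 0.0357 without Scr 4 to 0.179 without Scr 3.

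Ssh2 (chr11:77216287-77460220, plus strand) was at 60.8, 60.4, 58.8, 68.3 and 56.1 CPM in Ant-134 and at 61.5, 54.3, 58.0 and 60.6 CPM in Scr. Ant-134 4 was the highest mouse and the other 4 lay among the Scr mice. The means were 60.9 ± 4.55 CPM (SD, n = 5) and 58.6 ± 3.22 (n = 4), with a log2 fold change of 0.056 (SE 0.058, interval -0.069 to 0.18, edgeR p = 0.351, exact permutation p = 0.468) that fell to 0.011 without Ant-134 4. Ssh3 (chr19:4261668-4269172, minus strand) was at 70.4, 66.5, 70.3, 70.7 and 70.2 CPM in Ant-134 and at 74.2, 77.0, 64.5 and 72.7 CPM in Scr. All 5 Ant-134 mice lay below 3 of the Scr mice and above Scr 3. The means were 69.6 ± 1.78 CPM (SD, n = 5) and 72.1 ± 5.38 (n = 4), with a log2 fold change of -0.051 (SE 0.051, interval -0.16 to 0.057, edgeR p = 0.328, exact permutation p = 0.286). Without Scr 3 it was -0.10 (edgeR p = 0.0413, adjusted p = 1.00, exact permutation p = 0.0179), and without Scr 2 it was -0.018 (exact permutation p = 0.714). Scr 3 was also the lowest mouse for Limk2.

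Pak1 (chr7:97788541-97912381, plus strand) and Rock2 (chr12:16894895-16987823, plus strand) encode the kinases that pass signals of small GTPases on to the LIM kinases. Pak1 was at 301, 290.1, 306, 297 and 276 CPM in Ant-134 and at 290.3, 271, 273 and 290.6 CPM in Scr. Ant-134 1, 3 and 4 lay above every Scr mouse, and Ant-134 2 and 5 lay within the Scr range. Pak1 had the largest log2 fold change of the 10 members in either direction, 0.063 (SE 0.044, interval -0.032 to 0.16), and the smallest edgeR p, 0.177. Its means were 294 ± 11.7 CPM (SD, n = 5) and 281 ± 10.5 (n = 4), a change of 4.43% with an interval of -2.16% to 11.5%, and its exact permutation p was 0.135. Rock2 was at 191, 197, 188, 219.9 and 179 CPM in Ant-134 and at 194, 182, 178 and 197 CPM in Scr. Ant-134 4 was the highest mouse here as for Ssh2. The means were 195 ± 15.3 CPM (SD, n = 5) and 188 ± 9.05 (n = 4), with a log2 fold change of 0.057 (SE 0.057, interval -0.064 to 0.18, edgeR p = 0.332, exact permutation p = 0.484) that fell to 0.0092 without Ant-134 4.

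**Figure D3:**
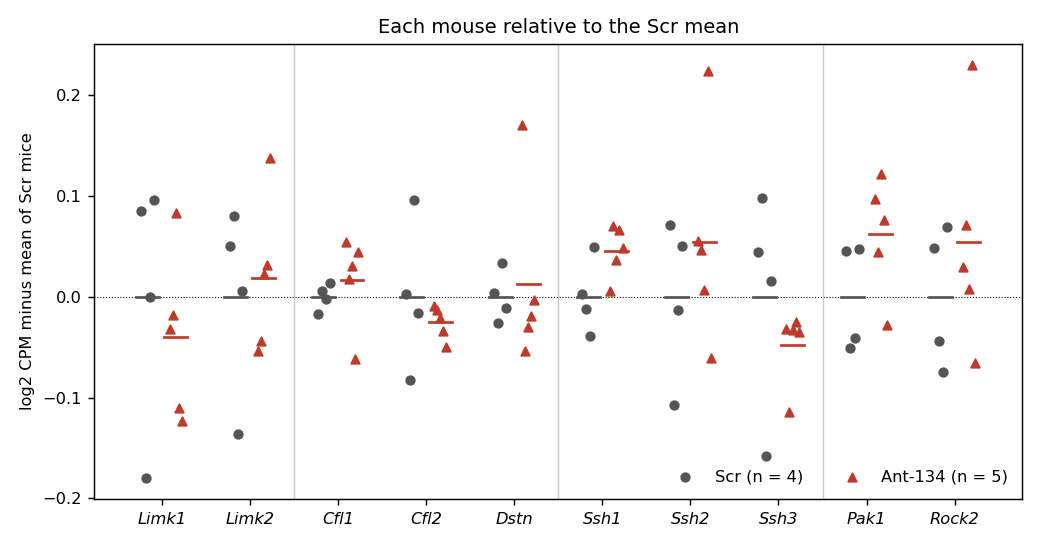
log2 CPM of each gene in each mouse minus the mean of the 4 Scr mice (circles: Scr; triangles: Ant-134, n = 5; lines: group means). Points far from 0 are single mice: Ant-134 4 for Ssh2 and Rock2, Ant-134 1 for Dstn, Scr 2 for Limk1, Ant-134 5 and Scr 3 for Limk2, and Scr 3 for Ssh3.

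The 10 intervals bound the changes in RNA level compatible with these mice. The lower bounds ran from -11.3% (Limk1) to -2.16% (Pak1), and the upper bounds from 4.03% (Ssh3) to 13.4% (Ssh2). Over all 9 mice the coefficients of variation of the members ran from 2.38% for Cfl1 to 6.88% for Limk1, with a median of 5.03%, beside 5.34% over the 6614 genes with a mean of at least 31.7 CPM. Limk1 was more variable than 73.4% of those genes, and Cfl1 more variable than 2.37% of them. The median size of the log2 fold change, regardless of sign, was 0.044 for the members and 0.036 for those genes.

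**Figure D4:**
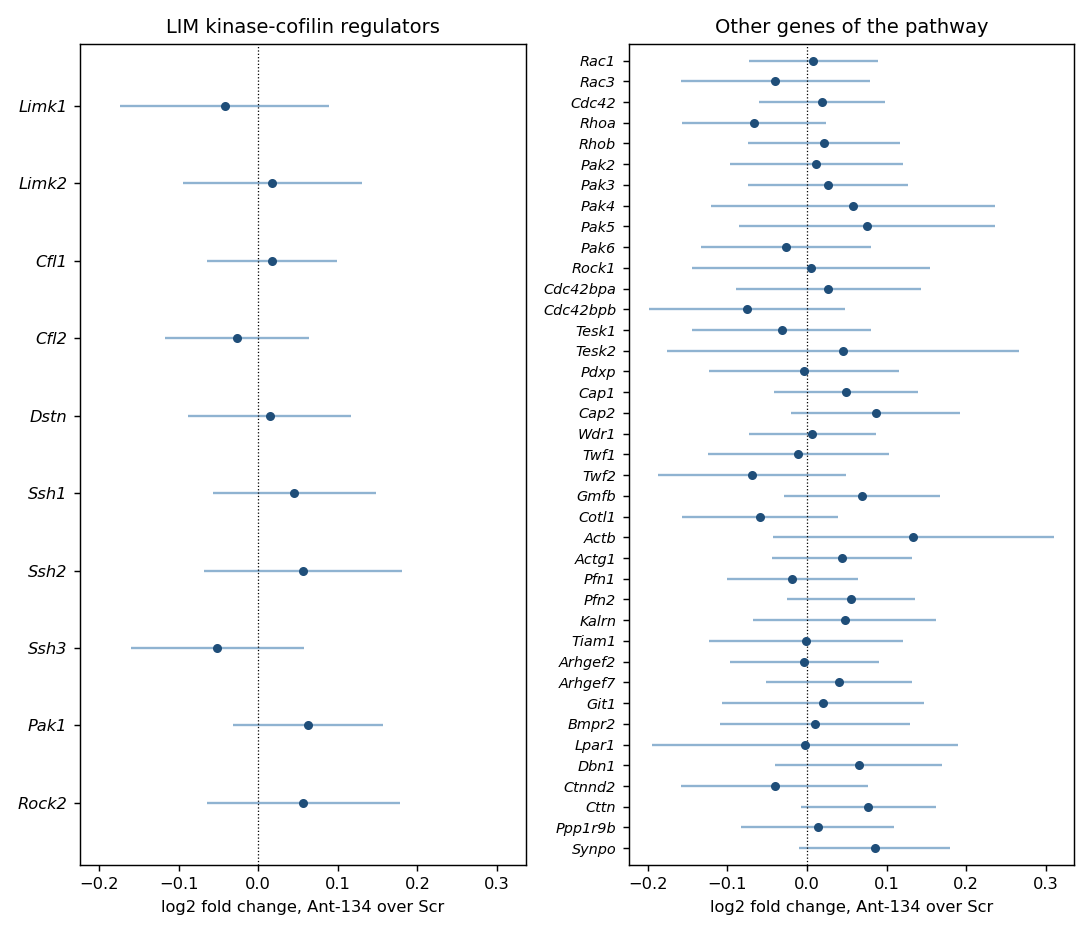
edgeR log2 fold changes of Ant-134 (n = 5) over Scr (n = 4) with 95% intervals, for the 10 members (left) and 39 other genes of the pathway (right). Every interval includes 0, and among the members the widest reach is from -0.17 (Limk1) to 0.18 (Ssh2 and Rock2).

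Within each family the share of each gene was compared between the groups. Cfl1 made up 79.6 ± 0.741% of the summed cofilin family FPKM in Ant-134 (SD, n = 5) and 79.5 ± 0.486% in Scr (n = 4), with Dstn at 15.8% in both and Cfl2 at 4.59% and 4.72%. Limk2 made up 72.6 ± 1.87% of the LIM kinase FPKM in Ant-134 and 71.8 ± 2.44% in Scr, the rest being Limk1. Ssh3 made up 78.6 ± 0.786% of the slingshot FPKM in Ant-134 and 79.7 ± 1.32% in Scr, with Ssh1 at 11.2% and 10.7% and Ssh2 at 10.2% and 9.62%. The ranges of the 2 groups overlapped for each of these 8 shares.

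The members did not all vary together from mouse to mouse. As a description, the SD over the 9 mice of the log2 ratio of 2 genes was taken, which is small where both go up and down together and also where both vary little. Of the 45 pairs, Ssh2 with Rock2 had the most constant ratio (SD 0.035), although each alone had an SD of 0.094 and 0.093, and both were highest in Ant-134 4. Cfl1 with Ssh1 (0.053) and Ssh1 with Pak1 (0.056) followed, but Cfl1 and Ssh1 alone had SDs of 0.035 and 0.038, below that of their ratio. The least constant ratio was that of the 2 LIM kinases to each other (SD 0.149, each alone having a smaller SD than that), followed by Limk1 to Ssh3 (0.136) and Limk2 to Ssh2 (0.135). Among 14085 genes with a mean of at least 1 FPKM, the 3 whose ratio to Limk1 was the most constant were Etv5, a transcription factor gene (SD 0.040), Cerk, which encodes ceramide kinase (0.041), and Phf24 (0.043), where the median gene had 0.148. All these ratios share the same 9 libraries.

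The other genes of the route from small GTPases to cofilin were read the same way. Of 39 listed genes, all tested, edgeR called 0 higher and 0 lower at an unadjusted p below 0.05 (background 1.49% and 2.69%), and 25 lay above 0 and 14 below, with a median log2 fold change of 0.013. DESeq2 called 1 of the 39, Cttn (adjusted p = 1.00). The exact permutation test gave 4 of the 39 an unadjusted p below 0.05, 3 higher (Cttn, Synpo and Pfn2) and 1 lower (Rhoa), beside 2.03% and 2.64% of all tested genes, and the smallest adjusted p over all tested genes was 0.987. Pfn2, the brain profilin gene, is named after its values were seen (551 ± 5.65 against 529.9 ± 14.7 CPM, log2 fold change 0.056, SE 0.038, exact permutation p = 0.0238, edgeR p = 0.161). The groups overlapped for all 39 genes.

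By edgeR the 3 genes with the smallest p on the higher side were Cttn, Synpo and Cap2. Cttn, which encodes the branched-actin binder cortactin, was at 175 ± 2.02 CPM in Ant-134 (SD, n = 5) and 166 ± 6.73 in Scr (n = 4), with a log2 fold change of 0.077 (SE 0.040, edgeR p = 0.0725, exact permutation p = 0.0159). Synpo, which encodes synaptopodin of the spine apparatus, was at 179.9 ± 3.90 and 169.6 ± 9.39 CPM, with 0.085 (SE 0.044, edgeR p = 0.0743, exact permutation p = 0.0476). Cap2, a cyclase-associated protein gene whose product works with cofilin, was at 155 ± 9.67 and 146 ± 4.79 CPM, with 0.086 (SE 0.050, edgeR p = 0.104, exact permutation p = 0.143). All 5 Ant-134 mice lay above the Scr mean for Cttn and Synpo, and 4 of 5 for Cap2. Without Scr 2, Cttn (log2 fold change 0.10) and Synpo (0.11) passed an unadjusted edgeR p of 0.05, each with an adjusted p = 1.00, as did Cap2 (0.12) without Ant-134 5, with an adjusted p = 0.997. Without Scr 3 the log2 fold changes were 0.057 for Cttn and 0.049 for Synpo, and neither passed. Cap2 was lowest without Ant-134 4, at 0.062.

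On the lower side the smallest edgeR p values were those of Rhoa, Cdc42bpb and Cotl1. Rhoa, the GTPase that activates ROCK, was at 127 ± 5.95 CPM in Ant-134 and 132 ± 0.825 in Scr, with a log2 fold change of -0.07 (SE 0.042, edgeR p = 0.138, exact permutation p = 0.0397). Its level lay below the Scr mean in 5 of 5 Ant-134 mice. Cdc42bpb, an MRCK kinase that also phosphorylates LIM kinases, was at 132 ± 9.88 and 139 ± 7.95 CPM, with -0.08 (SE 0.057, edgeR p = 0.209, exact permutation p = 0.286). Cotl1, which encodes coactosin-like protein, was at 92.3 ± 4.51 and 96.1 ± 3.84 CPM, with -0.06 (SE 0.046, edgeR p = 0.216, exact permutation p = 0.222). Single mice moved these values by over 1.5 times: without Ant-134 5 Rhoa was at -0.038 and Cdc42bpb at -0.037, without Scr 2 Cdc42bpb was at -0.11 and Cotl1 at -0.033. The gene with the largest log2 fold change of the 39 was the actin gene Actb, at 1136 ± 105 and 1035 ± 110.1 CPM, with 0.13 (SE 0.081, edgeR p = 0.125, exact permutation p = 0.214). Without Ant-134 2 (0.19) or without Scr 1 (0.20), Actb passed an unadjusted edgeR p of 0.05, with an adjusted p = 1.00 in both, and without Scr 3 it was at 0.081 and did not pass.

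None of the most abundant genes of the remaining groups passed the edgeR test. Rhob, a small GTPase gene, was at 164 FPKM on average, with a log2 fold change of 0.021 (SE 0.045). Cap1, the broadly expressed cyclase-associated protein gene, was at 73.5 FPKM with 0.049 (SE 0.042), and Pdxp, which encodes the other cofilin phosphatase, chronophin, at 44.1 FPKM with -0.003 (SE 0.056). Tesk1, a further cofilin kinase gene, was at 8.46 FPKM with -0.03 (SE 0.053), and ran from -0.057 without Ant-134 4 to -0.012 without Scr 3. Git1, an adaptor that brings PAK to its exchange factors, was at 74.5 FPKM with 0.020 (SE 0.059), and Ppp1r9b, which encodes spinophilin, at 260.2 FPKM with 0.013 (SE 0.045). Of the 39 genes, 9 held a 7-base miR-134 site in the longest 3′ UTR, beside 19.5% of all genes. The smallest adjusted p by edgeR among the 39 was 0.998.

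The libraries differed in other ways that bear on reading these values. Ube3a, mutated in all 9 mice, was at 90.2 ± 6.26 CPM in Ant-134 and 92.4 ± 4.81 in Scr (log2 fold change -0.03, SE 0.054), and with no wild-type mouse its level does not check the genotype. The summed FPKM of 6 microglial markers ran from 161 to 176 in Ant-134 and from 180.3 to 205 in Scr. That of 6 meningeal fibroblast markers ran from 14.8 to 25.4 and from 22.3 to 29.5. At an unadjusted edgeR p below 0.05, 3 of 6 microglial and 4 of 6 fibroblast markers were lower, beside 2.69% of all tested genes. Their edgeR adjusted p was 0.987 for Csf1r and 0.998 for the other markers called. Of the other lists, 1 neuronal marker, Snap25 (log2 fold change 0.12, SE 0.053), and 1 thalamus marker, Lef1 (0.44, SE 0.19), were higher at an unadjusted edgeR p below 0.05. Of all tested genes 1.49% were higher at that threshold, and both markers had an edgeR adjusted p = 0.998. No listed marker was at 0 in any mouse. Astrocyte (556 to 670.3 against 551 to 707), oligodendrocyte (1144 to 1956 against 1443 to 1565) and endothelial sums (35.5 to 51.9 against 36.8 to 59.6) overlapped, as did those of choroid plexus (40.4 to 1996 against 49.9 to 1586), erythrocytes (87.7 to 509 against 55.2 to 115), thalamus (14.2 to 27.1 against 14.0 to 18.5) and activity-regulated genes (109 to 170 against 97.2 to 122). The part of these differences in the members' levels was not tested. The mean log2 CPM of 4 Y-linked genes was -3.69 in Ant-134 1, -1.98 in Ant-134 4 and -3.53 in Scr 3, and 5.21 to 5.35 in the other 6 mice. By these levels the first 3 mice read as female and the other 6 as male, though no label gives the sex. The 3 mice with low Y-linked levels are among those that stood apart (Ant-134 1 for Dstn, Ant-134 4 for Cfl1, Ssh2 and Rock2, Scr 3 for Limk2 and Ssh3). Mice with high Y-linked levels stood apart as well (Scr 2 for Limk1, Ant-134 5 for Limk2, Ant-134 2 for Ssh3). The part of sex in these values was not tested. With that level as a covariate, edgeR called 0 of 10 members at an unadjusted p below 0.05, and each log2 fold change kept its direction, with Dstn at 0.0023 in place of 0.015 and Limk2 at 0.032 in place of 0.018.

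**Figure D5:**
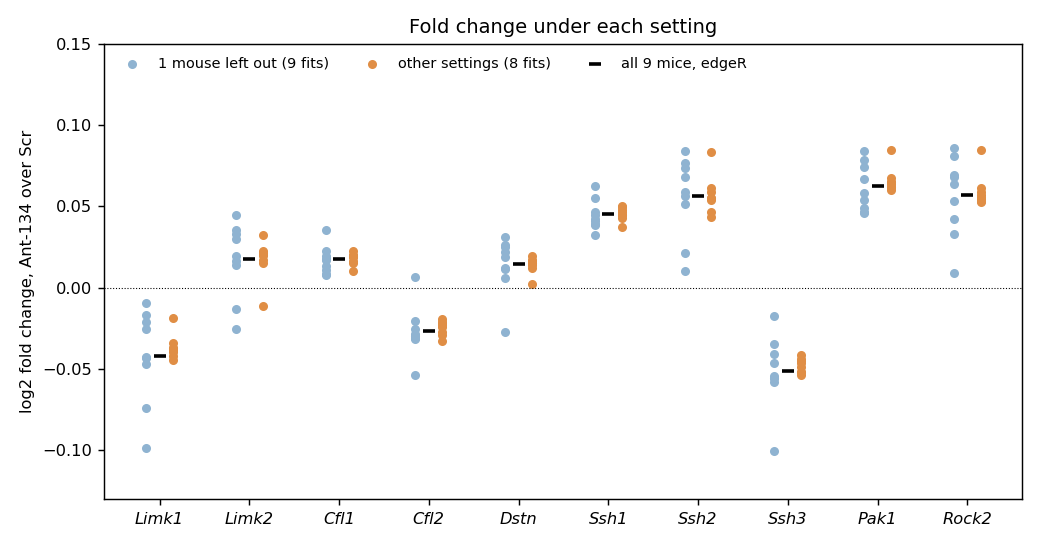
log2 fold change of each gene, Ant-134 over Scr, with all 9 mice in edgeR (black bars), under 8 other settings (orange) and with each of the 9 mice left out in turn (blue). Limk2, Cfl2 and Dstn cross 0, the other 7 genes keep their side, and all values lie between -0.10 and 0.086.

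Directions rested on single mice for 3 of the 10 genes. Leaving out 1 mouse in turn reversed Limk2 in 2 of 9 fits, and Cfl2 and Dstn in 1 of 9 each, while Limk1 and Ssh3 stayed below 0 and Cfl1, Ssh1, Ssh2, Pak1 and Rock2 above 0 in 9 of 9. For Limk1 the values ran from -0.099 without Scr 2 to -0.0093 without Scr 4, and no fit gave an edgeR p below 0.0949. For Pak1 they ran from 0.046 to 0.084, with the smallest edgeR p of 0.0677 without Ant-134 5. These p-values measure the spread between mice, each of which gave 1 library.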

How the data were processed

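Total RNA was taken from the ipsilateral hippocampus of each mouse. By the paper's methods, mRNA was selected by its poly-A tail before the libraries were made and sequenced on an Illumina platform. The submitters' processing notes name CASAVA 1.8, HISAT2 2.0.5 and featureCounts 1.5.0-p3 with build mm10. The authors deposited read counts per gene and FPKM per gene, without pooling of mice. FPKM equalled counts divided by exon length and assigned library total within a factor of 0.978 to 1.007. Counts were tested with edgeR 4.0.16 in R 4.3.3 (quasi-likelihood, robust, TMM scaling, minimum count 10), with Benjamini-Hochberg adjustment over 19782 genes. Of the 54532 genes, 37454 had a count. Alternatives were DESeq2 1.42.0, DESeq2 size factors within edgeR, no filter, at least 10 counts in every mouse, the replicate number as a block, Y-linked expression as a covariate, the log2 FPKM values in limma 3.58.1 with a pseudocount of 1 or 0.1, and each mouse left out in turn. Exact two-sided permutation tests used every split of the 9 mice. The test steps were checked on simulated counts. miR-134 sites were read from GENCODE M21 transcripts (GRCm38, longest 3′ UTR among protein-coding transcripts). Intervals cover 95%.

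The 10 members and all lists were chosen with earlier results of these data known. Of the 39 pathway genes, those named are any with an edgeR p below 0.05, the 3 with the smallest p in each direction and the most abundant of each group. For Limk1 the 3 genes with the most constant ratio are named. Pak5 appears as Pak7 in the deposited tables. Sums of marker genes are given in FPKM for hippocampus, neurons, microglia, astrocytes, oligodendrocytes, endothelium, meningeal fibroblasts, choroid plexus, erythrocytes, thalamus and activity-regulated genes.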

Additional observations from a re-analysis of the deposited data

Results flagged for a closer look

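In 50 groups of mice (10 members, 3 family sums, 11 marker sums and the total counts, in each treatment group), 6 held 1 mouse that stood apart from the rest by Dixon's test at the 95% level, where chance gives about 2.5. For Dstn, Ant-134 1 was at 168.8 CPM and the other 4 Ant-134 mice at 144 to 149.6. For Ssh3, Ant-134 2 was the lowest at 66.5 CPM, with the others at 70.2 to 70.7. The summed FPKM of the choroid plexus markers was 1996 in Ant-134 1 and 40.4 to 525 in the other Ant-134 mice. The summed FPKM of the erythrocyte markers was 509 in Ant-134 3 against 87.7 to 147, and that of the thalamus markers was 27.1 in the same mouse against 14.2 to 14.9. The summed FPKM of the activity-regulated genes was 170 in Ant-134 5, with 109 to 124 in the other Ant-134 mice.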

How the results depend on the processing

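Over 8 other settings that left out no mouse, the number of members called at an unadjusted p below 0.05 was 0 each time, and 1 of 80 log2 fold changes turned direction. Correlations between Ant-134 and Scr mice of the same replicate number were -0.209 to 0.043, within the -0.324 to 0.382 of differently numbered mice. The replicate numbers therefore gave no sign of a pairing. The paper calls the Scr mice littermates of the treated mice. Which mice shared a litter was not given in the sources used here, so litter was not modelled. With the replicate number as a block, Limk2 turned to -0.012, 808 genes were called instead of 827, 0 members were called and the pathway count was 1 (Cap2). Ant-134 5 has no partner in that fit and so adds nothing to the group difference. With that mouse left out, Limk2 was at -0.013 and Cap2 at 0.12. The pathway count of 0 became 1 under DESeq2, under limma with log2(FPKM + 1) and under limma with log2(FPKM + 0.1) (Cttn each time). With single mice left out, members called ranged from 0 to 1, pathway genes called from 0 to 2 and members with a permutation p below 0.05 from 0 to 1 (Cfl1, Ssh3 or Ssh1). Log2 fold changes with single mice left out ran from -0.025 to 0.045 for Limk2, -0.054 to 0.0066 for Cfl2, -0.027 to 0.031 for Dstn, -0.0012 to 0.044 for Rhob, -0.042 to 0.036 for Pdxp, -0.033 to 0.068 for Git1 and -0.012 to 0.035 for Ppp1r9b. Pdxp was also at 0.0017 under DESeq2 and at 0.0022 with the Y-linked covariate. Members with a miR-134 site numbered 3 with 7-base sites, 0 with the 8-base site, 4 in any annotated 3′ UTR (23.2% of all genes) and 5 with the 6-base match, which was chosen after seeing the data. The cause of these shifts was not tested.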
